A study of Homo sapiens with 12 samples.

Results

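SLC7A11 and SLC3A2 encode the subunits of the cystine antiporter, the target of erastin, and OTUB1 encodes an enzyme that acts on SLC7A11. They were taken by gene name from lists of N1-methyladenosine (m1A) peaks, and they are 3 of 10226 genes found in at least 1 of the lists. The lists come from SNU-668, a human gastric cancer cell line made resistant to erastin, and the comparison is between resistant cells given an shRNA against ALKBH3, labelled ALKBH3 knockdown, and resistant cells given the control shRNA-NC, labelled WT. Of the 12 samples, 6 are m1A immunoprecipitations (IP), 3 for each group, and 6 are the inputs that go with them. Both groups are therefore erastin-resistant, and the non-resistant parent line is not analysed here. The labels do not say how many shRNA sequences were used or whether replicates are independent cultures, so that a p-value here speaks of the spread among these libraries alone, part of which may be technical.

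The antiporter, system xc-, takes up cystine in exchange for glutamate. SLC7A11 (xCT) is the light chain that carries out the transport, and SLC3A2 (the heavy chain of CD98) brings it to the plasma membrane and pairs with other amino acid transporters as well. Imported cystine is reduced to cysteine for glutathione, which GPX4 uses to detoxify lipid peroxides. Erastin stops this import and leads to ferroptosis, an iron-dependent cell death. OTUB1 is a deubiquitinase that binds SLC7A11 and protects it from degradation. In m1A a methyl group sits on the base-pairing edge of adenine, and ALKBH3 is one of the enzymes that can remove it from RNA.

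Each IP sample has its own list of peaks, placed on genome build hg19. The knockdown lists hold between 8474 and 34691 distinct peaks and the control lists between 4894 and 15130, and no read counts accompany them, so the sequencing depth is unknown. The log2 enrichment of a peak, as the authors deposited it, is read here as IP over input, and its median over a list lay between 1.58 and 2.29. A value of this kind belongs to its own list, so peaks are set against the other peaks of the same list by percentile. The epithelial keratins KRT8 and KRT18 had a peak in all 6 lists, KRT19 in 5 and EPCAM in 3, while CDH1 was listed in none. A peak needs both transcript and modification, so the lists cannot tell less of an mRNA from less of the mark, nor fewer cells with the mRNA from less mRNA per cell, and the amount of ALKBH3 mRNA could not be checked.

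SLC7A11, the transporting subunit, carried 17 peaks in 5 of the 6 lists, 11 in knockdown and 6 in control. Of these, 13 lay wholly in its 3′ UTR, and the other 4 lay at the 5′ end, in knockdown lists. All of them were annotated to a single transcript, ENST00000280612, which is 9645 nt long and lies on the minus strand of chromosome 4. The knockdown lists held 4, 5 and 2 peaks, in the order of their replicate numbers, and the control lists 4, 0 and 2. Both groups thus had a list with 4 and a list with 2 peaks, and the list without any was control replicate 2, the shortest of the 6.

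The means were 3.67 ± 1.53 peaks in knockdown and 2.00 ± 2.00 in control (SD, n = 3 each), and the groups overlapped. The difference was 1.67 (exact permutation test, two-sided, p = 0.5, or 1 after adjustment over 10226 genes). A comparison of 3 lists with 3 can reach a p of 0.1 at the lowest, as 4.92% of all genes did. With all peaks counted, none of the 3 genes described here did so in number of peaks. A higher mean number of peaks in the knockdown lists was the common case, found for 77.5% of genes, with a median difference of 0.67 peaks. Per 10000 peaks of the list, SLC7A11 had 1.15, 3.83 and 2.36 in knockdown and 7.98, 0 and 1.32 in control. By this measure the control mean was the higher, 3.10 against 2.45 (exact permutation test, two-sided, p = 0.9, or 1 after adjustment), and it rested on control replicate 1, without which the knockdown mean was higher by 1.79.

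**Figure D1:**
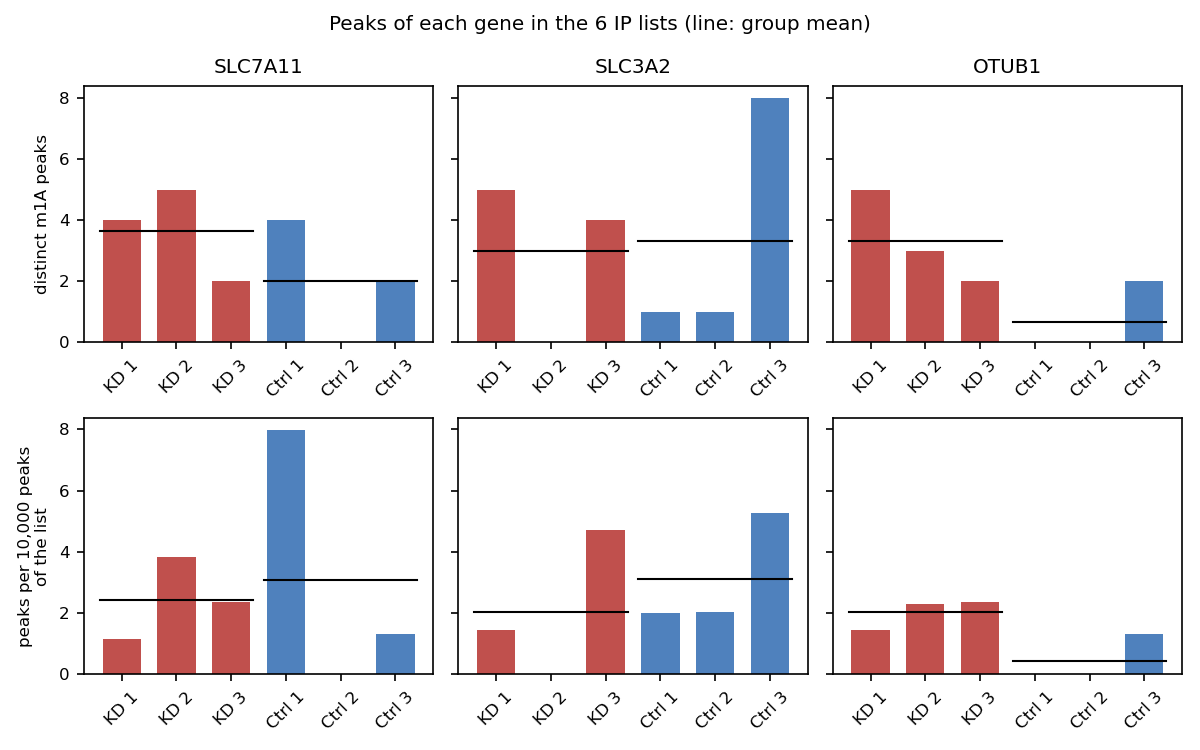
Number of distinct m1A peaks (upper row) and peaks per 10,000 peaks of the list (lower row) for each gene in the 3 knockdown (KD, red) and 3 control (Ctrl, blue) lists; bars are single lists and lines are group means. OTUB1 has no bar in control replicates 1 and 2, SLC7A11 none in control replicate 2 and SLC3A2 none in knockdown replicate 2.

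The 3′ UTR peaks of SLC7A11 were spread over 7475 nt (chromosome 4, 139085501 to 139092975) and mostly fell at different places in each list. Apart from 1 peak, their log2 enrichments were alike, between 1.95 and 2.62. Knockdown replicate 2 had all of its 5 peaks in this stretch, with log2 enrichments of 2.25, 2.32, 2.10, 2.62 and 2.27. Control replicate 1 had all of its 4 peaks there, with 2.18, 1.95, 2.13 and 2.40. These peaks ranked differently within their lists, since among 3′ UTR peaks on transcripts of at least 4000 nt the best of knockdown replicate 2 stood at percentile 40.4 and the best of control replicate 1 at percentile 77.2. The median log2 enrichment of such peaks was 2.87 in the former list and 1.81 in the latter.

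The exception was a 50-nt peak in knockdown replicate 1 (139088376 to 139088425) with a log2 enrichment of 6.93, a 122-fold excess. It was among the 8 most enriched of the 34691 peaks of that list. Its false discovery rate of 3.82e-10 was weak for that list, where 91.9% of peaks had a lower one. No other list had an SLC7A11 peak nearer than 675 nt to it, so this value stands on 1 library. Without that library the difference in best log2 enrichment between the groups, 1.32 in favour of knockdown, turned to -0.31.

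A single stretch of the 3′ UTR was found again in 3 lists, from 139087201 to 139087425. Knockdown replicate 1 covered it from 139087251 to 139087325 with a log2 enrichment of 2.27, knockdown replicate 2 from 139087201 to 139087375 with 2.32, and control replicate 3 from 139087301 to 139087425 with 2.27. The stretch shared by all 3 lists was 25 nt long and occurred in both groups. Of the genes that, like SLC7A11, had a peak in 5 lists, 67.1% had such a position in at least 3 lists.

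At the 5′ end, 4 peaks lay within 150 nt of one another and came from knockdown replicates 1 and 3. Knockdown replicate 1 had a coding sequence peak (139163134 to 139163208, log2 enrichment 1.49) and a 5′ UTR peak (139163259 to 139163283, 1.73). Knockdown replicate 3 had its only SLC7A11 peaks here, in coding sequence (139163159 to 139163183, 1.43) and across the border of coding sequence and 5′ UTR (139163209 to 139163233, 1.49). The coding sequence peaks of both lists overlapped by 25 nt, while the remaining peaks met no other. No control list and not knockdown replicate 2 had a peak at this end. A position in at least 2 knockdown lists and no control list was present in 38.3% of the genes with a peak in 5 lists, so this pattern is common among such genes. The 5′ end peaks stood between percentiles 17.2 and 32.1 of their lists, lower than the 3′ UTR peaks.

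**Figure D2:**
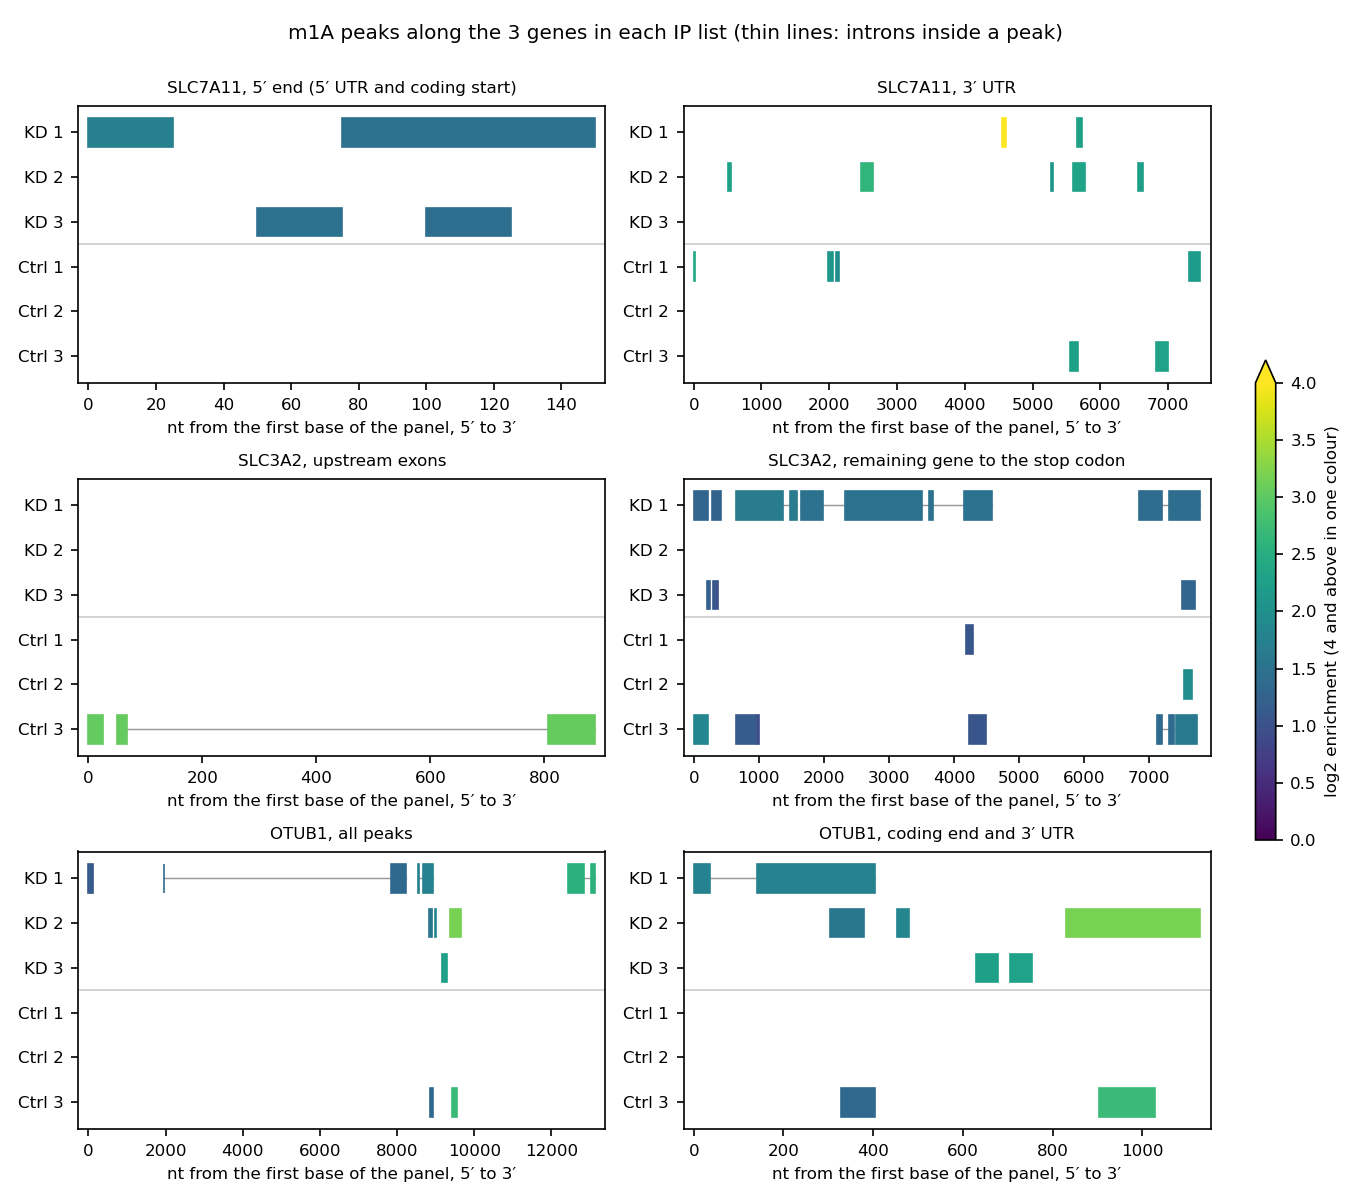
Position of every peak of the 3 genes in the knockdown (KD) and control (Ctrl) lists, in nucleotides from the first base of each panel in the direction of transcription; colour gives the log2 enrichment and thin lines join the parts of a spliced peak. SLC7A11 peaks at the 5′ end occur in KD 1 and KD 3, the 3′ UTR peaks of SLC7A11 are scattered, and SLC3A2 peaks near the stop codon line up in 4 lists.

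SLC3A2, the heavy chain, carried 19 peaks in 5 lists, and none of them lay wholly in a 3′ UTR. In contrast to SLC7A11, its peaks sat over coding sequence, often over the 5′ UTR of a shorter transcript at the same time, and 3 ran across the stop codon into the 3′ UTR. They were annotated to 13 transcripts between 269 and 2397 nt on the plus strand of chromosome 11. The knockdown lists held 5, 0 and 4 peaks and the control lists 1, 1 and 8. The extremes of both groups overlapped widely, with a list of many peaks and a list of none or 1 on each side. The means were 3.00 ± 2.65 in knockdown and 3.33 ± 4.04 in control (SD, n = 3 each), a difference of -0.33 (exact permutation test, two-sided, p = 1). The sign of this difference turned to 2.00 without control replicate 3 and to 1.17 without knockdown replicate 2. Per 10000 peaks the values were 1.44, 0 and 4.72 in knockdown and 1.99, 2.04 and 5.29 in control, which again overlapped (exact permutation test, two-sided, p = 0.5, or 1 after adjustment).

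The enrichment of SLC3A2 was low for its lists, with 17 of the 19 peaks below the median of their own list. The best peak stood at percentile 28.2 in knockdown replicate 1, 15.9 in knockdown replicate 3, 21.3 in control replicate 1 and 37.3 in control replicate 2. The 2 peaks above the median were both in control replicate 3, over upstream coding exons (chromosome 11, 62638242 to 62638266 and 62638292 to 62639130). Their log2 enrichments of 3.03 and 3.06 put them at percentiles 81.9 and 82.3 of that list. The former was annotated to 2 transcripts and the latter to 5, and no other list had a peak in these exons.

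SLC3A2 positions recurred between lists, and most of them did so across the groups. Around the stop codon, from 62655342 to 62656278, peaks of 4 lists were joined, and 125 nt were covered in every one of them. The best log2 enrichment there was 1.41 in knockdown replicate 1, 1.29 in knockdown replicate 3, 1.94 in control replicate 2 and 1.61 in control replicate 3. Among genes with a peak in 5 lists, 41.6% had a position in at least 4 lists. Further upstream, knockdown replicate 1 and control replicate 3 had a peak with identical borders (62648490 to 62648714), with log2 enrichments of 1.29 and 1.83. Knockdown replicate 3 reached into it with a peak from 62648690 to 62648739 (1.21). The 100-nt peak of control replicate 1 (62652679 to 62652778, 1.07) lay wholly within a spliced peak of knockdown replicate 1 that covered 2000 nt in 4 parts. In all, the peaks of knockdown replicate 1, the longest list, covered 4025 nt of SLC3A2, against 300 nt in knockdown replicate 3 and 1400 nt in control replicate 3. The longest transcript annotated to these peaks has 2397 nt, so the 4025 nt cannot all be exon of 1 transcript. The bases under any SLC3A2 peak numbered 4175, so nearly any peak of another list met one of knockdown replicate 1. Each of the 5 recurring positions included that list, and without it 3 positions had peaks in at least 2 lists.

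OTUB1, the deubiquitinase, carried 12 peaks, 10 in knockdown and 2 in control lists. The knockdown lists held 5, 3 and 2 peaks and the control lists 0, 0 and 2. All 3 knockdown lists thus had a peak and only control replicate 3 among the controls did, and that list equalled knockdown replicate 3. The means were 3.33 ± 1.53 and 0.67 ± 1.15 peaks (SD, n = 3 each), a difference of 2.67 (exact permutation test, two-sided, p = 0.2, or 1 after adjustment). Per 10000 peaks the knockdown lists had 1.44, 2.30 and 2.36 and the control lists 0, 0 and 1.32, so that every knockdown list lay above every control list. The means were 2.03 ± 0.51 and 0.44 ± 0.76 (SD, n = 3 each), with p = 0.1, the lowest possible, in the two-sided exact permutation test and 1 after adjustment over 10226 genes. Such a separation was found for 4.89% of all genes.

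The lists with an OTUB1 peak were the 4 longest of the 6, and the 2 without were the shortest, with 4894 and 5015 peaks. The same presence pattern was found for 6.35% of genes, and 20.1% of genes had a peak in at least 2 more knockdown than control lists. The part of list length in the OTUB1 pattern was not tested. With lists of equal length, keeping the 4894 peaks of highest enrichment, OTUB1 had 0, 1 and 2 peaks in knockdown and 0, 0 and 1 in control. This cut goes by enrichment, so it cannot tell list length from the rank of the peaks. It removed no peak of control replicate 2, the shortest list. It removed every SLC3A2 peak of knockdown replicates 1 and 3, where the best stood at percentiles 28.2 and 15.9. The share of all genes reaching the smallest p at equal length was not determined. Among peaks of at least 4-fold enrichment the numbers of OTUB1 peaks were 1, 1 and 2 against 0, 0 and 1.

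OTUB1 peaks of the knockdown lists lay at different places. The peaks of knockdown replicate 1 began in coding sequence, with 3 peaks (log2 enrichments 1.14, 1.12 and 1.35) that were met in no other list. Its 4th peak (chromosome 11, 63764680 to 63765083, 1.76) covered the end of the coding sequence, where knockdown replicate 2 (63764984 to 63765058, 1.56) and control replicate 3 (63765009 to 63765083, 1.34) had one too, and 50 nt were common to all 3. Of genes with a peak in 4 lists, 42.6% had a position in at least 3. In the 3′ UTR, knockdown replicate 2 had a 300-nt peak (63765509 to 63765808) with a log2 enrichment of 3.18, and control replicate 3 had a peak wholly inside it (63765584 to 63765708) with 2.72. These were the best OTUB1 peaks of their lists, at percentiles 78.3 and 74.1. Between these sites, knockdown replicate 2 had a 25-nt peak (63765134 to 63765158, 1.84). Knockdown replicate 3 had both of its peaks further along the same stretch (63765309 to 63765358 and 63765384 to 63765433, log2 enrichments 2.25 and 2.31), and none of these 3 peaks overlapped a peak of another list.

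The 5th peak of knockdown replicate 1 (63768587 to 63769281, log2 enrichment 2.55) lay downstream of all others and was annotated to 1 OTUB1 transcript, ENST00000535715. It lay within the span of peaks of MACROD1, a gene on the opposite strand, in the same list and in control replicate 3, but shared no base with their exonic parts. The libraries were made with a stranded kit, and how strand was used in calling peaks is not given in the sources used here, so the gene of origin of this peak is uncertain. Without it knockdown replicate 1 had 4 OTUB1 peaks, the per-10000 values of the groups overlapped and the exact permutation test gave p = 0.2.

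**Figure D3:**
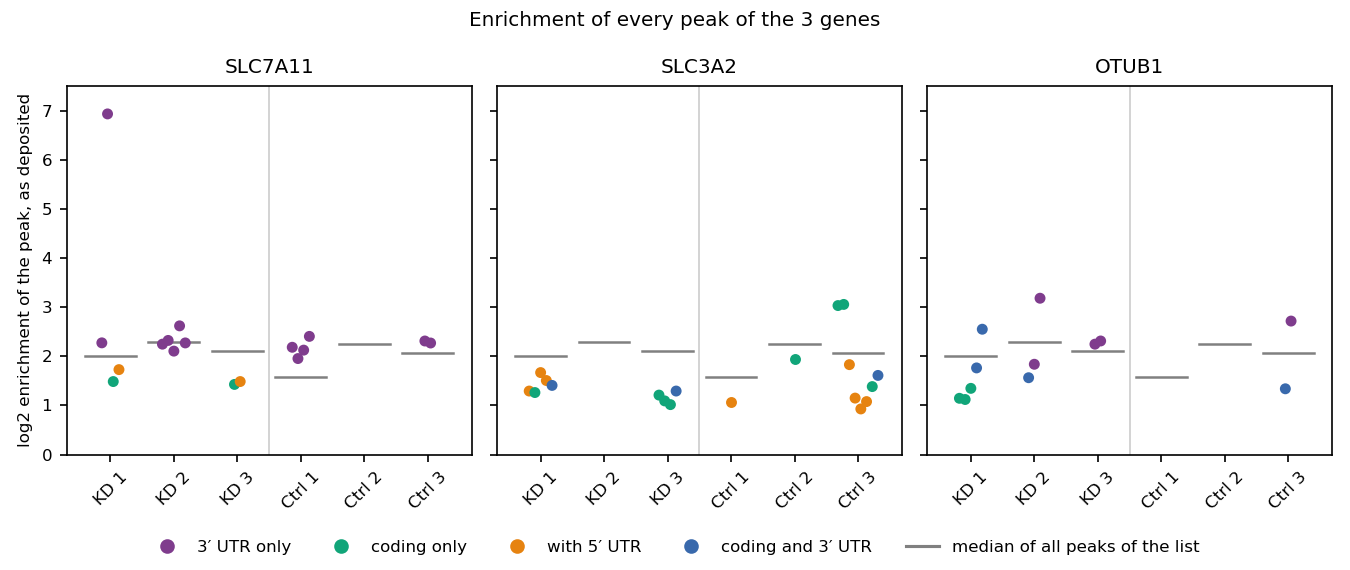
Log2 enrichment of every peak of the 3 genes, by knockdown (KD) and control (Ctrl) list, coloured by transcript region; grey lines are the medians of all peaks of each list. All but 2 SLC3A2 peaks lie below the line of their list, and 1 SLC7A11 peak of KD 1 stands at 6.93.

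Most of the covered sequence was covered in 1 list alone. This held for 87.8% of the 1225 SLC7A11 bases under any peak, 67.1% of the 4175 SLC3A2 bases and 86.8% of the 1700 OTUB1 bases. Joining overlapping peaks gave 14 positions for SLC7A11, 7 for SLC3A2 and 9 for OTUB1, of which 2, 5 and 2 had peaks in at least 2 lists. At least 1 such position was present in 93.9% of genes with a peak in 5 lists, the number for SLC7A11 and SLC3A2, and in 83.9% of genes with a peak in 4, the number for OTUB1. For SLC7A11, control replicates 1 and 3 shared no base, and neither did knockdown replicates 2 and 3. Of the bases of SLC7A11 in control replicate 3, 25% were shared with knockdown replicate 2, which are 15% of the bases there. For OTUB1, control replicate 3 shared 175 nt with knockdown replicate 2, which is 87.5% of the former and 43.8% of the latter, while knockdown replicates 2 and 3 shared none.

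The genes around the antiporter and OTUB1 were followed in 5 lists with 34 genes, of which 27 had a peak. A peak in at least 2 more knockdown lists was found for 4 of the 27 (14.8%), against 20.1% of all genes. For at least 2 more control lists it was 2 of the 27, a small count, against 180 of 10226 genes (1.76%). None of the 27 reached the smallest p in number of peaks. Among the partners and relatives of the antiporter subunits, SLC7A5, the large neutral amino acid transporter that also pairs with SLC3A2, had 8, 6 and 5 peaks in knockdown and 2, 5 and 11 in control. SLC7A6, another light chain, had 1 peak per knockdown list (log2 enrichments 2.85, 3.75 and 3.01) and 2 in control replicate 3. SLC7A7, SLC7A8, SLC7A9 and SLC7A10 had no peak.

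Among the regulators of SLC7A11 transcription, NFE2L2, the activator of the antioxidant response, had 9, 2 and 3 peaks in knockdown and 0, 0 and 3 in control. ATF3, a stress-induced factor that represses SLC7A11, had no peak in knockdown and 0, 1 and 3 in control, with log2 enrichments of 3.89 and 3.88. ATF4, the activator of the amino acid response, had a peak in all 6 lists. Of the regulators of SLC7A11 protein, CD44, BECN1 and SOCS2, none differed by 2 lists. Among the genes of cystine and cysteine supply and use, GCLC, the catalytic subunit of the first step of glutathione synthesis, had 5, 2 and 1 peaks in knockdown and 0, 0 and 1 in control. CBS, which makes cystathionine on the route from methionine to cysteine, had 7, 1 and 1 against 0, 0 and 1. Among the ubiquitin-conjugating enzymes that OTUB1 can bind, UBE2D1 had no peak in knockdown and 2, 0 and 1 in control, and UBE2D3 and UBE2E1 had peaks in all 6 lists. SLC7A6, NFE2L2, GCLC and CBS had peaks in the same 4 lists as OTUB1, the 4 longest. These genes were picked for a peak in at least 2 more knockdown lists, so the match follows in part from that choice. The same presence pattern was found for 6.35% of all genes.

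The genes most like each gene were sought by the sum of absolute differences in number of peaks over the 6 lists. SLC4A7 and RELA were nearest to SLC7A11, with a sum of 2 each, and TRAM1 followed with 3. SLC39A1 was nearest to SLC3A2 with a sum of 3, followed by NDUFS8 and DVL1 with 4. BRCA1 and CDC34 had the same number of peaks as OTUB1 in every list, and MAP4K2 differed by 1 peak.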

How the data were processed

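The authors deposited 1 peak list for each of the 6 IP samples, with 1 entry per annotated transcript. Per the labels' protocols, 120 ug of total RNA gave mRNA fragments of about 300 nt, which were pulled down with an anti-m1A antibody and sequenced with 150-nt reads from a stranded kit. The build hg19 and the tools HISAT2 2.1.0, Trimmomatic 0.32 and FastQC 0.11.7 are named, without roles, per the submitters' processing notes. The peak caller is not given in the sources used here. Per the file headers, each peak has a log2 fold change, a p-value and a false discovery rate, all the authors' own. Every deposited p-value was below 1e-10, and the 3 genes have a false discovery rate of at most 5.30e-09.

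Entries were collapsed to distinct peaks by position and strand, and positions are printed counted from 1. Spliced peaks were compared by their parts as deposited, here called exonic parts, and peaks of any list sharing at least 1 base on a strand were joined. The number of peaks per list, also per 10000 peaks, was compared between groups by the difference in means, with a two-sided exact permutation test and Benjamini-Hochberg adjustment over 10226 genes. The test was checked on simulated data. Best enrichment was not tested, since none of the 3 genes had a peak in every list. Python 3.11.15, pandas 2.3.3 and NumPy 2.4.6 were used. Alternatives were a 4-fold limit, a limit of 5 on the -log10 false discovery rate, equal list length, other rules of overlap, uncollapsed entries, replicate block and each replicate left out. The 3 genes and the gene lists were chosen with earlier results of these data known. Named were, per gene list, up to 4 genes whose number of lists with a peak differed by at least 2 between groups, and the 3 nearest patterns of each gene. SLC7A5, ATF4, UBE2D3, UBE2E1 and the genes without such a difference were named after their values were seen. No genome of build hg19 was used here, so no sequence is printed.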

Additional observations from a re-analysis of the deposited data

How the results depend on the processing

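With 3 lists against 3 no setting could pass a threshold of 0.05, so only directions can be compared. The limit on the false discovery rate could remove no peak of any gene, since the largest value in any list was 1.04e-08. At equal list length the difference in SLC7A11 peaks was -0.67, against 1.67 with all peaks, and by percentile within the list the difference in best SLC7A11 enrichment was -10.6 percentage points. At equal list length SLC3A2 had 0, 0 and 0 peaks in knockdown and 1, 1 and 2 in control. That difference was -1.33 (exact permutation test, two-sided, p = 0.1). It cannot compare the groups, as the cut left only control replicate 2 whole. By percentile within the list, the difference in best SLC3A2 enrichment was -24.9 percentage points. With entries per transcript the SLC3A2 difference in peaks was 0.67. It was 1, and per 10000 peaks 0.34, with the longest lists, knockdown replicate 1 and control replicate 3, left out together. That alternative was added later with the data in view. The cause of these changes was not tested. The OTUB1 difference in peaks, 2.67, fell to 0.67 at equal list length (exact permutation test, two-sided, p = 0.7) and to 1 with the 4-fold limit. Its direction was kept under every setting run, though the replicate block and the false discovery rate limit could not change it. With each replicate left out the difference was 1.83 to 3.33, and per 10000 peaks 1.37 to 2.03. Without the peak carried by 1 transcript, also added later, the values were 2.33 and 1.50.

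With each replicate left out, SLC7A11 peaks ranged from 0.67 to 2.67, per 10000 peaks from -2.20 to 1.79, and best enrichment from -0.31 to 2.42. The SLC3A2 ranges were -1.50 to 2.00, -2.39 to 0.035 and -1.02 to -0.02. Best OTUB1 enrichment ranged from -0.29 to 0.15. Lists without a peak gave no value of enrichment to leave out. Joined positions in at least 2 lists numbered 1 to 2 for SLC7A11, 3 to 5 for SLC3A2 and 1 to 2 for OTUB1. With a reciprocal overlap of at least 50% they were 0, 2 and 1, among peaks of at least 4-fold enrichment 1, 0 and 1, and at equal list length 0, 0 and 1, where fewer peaks remain.

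Same-numbered lists showed no clear pairing, with correlations of their deviations over genes of -0.04, 0.08 and -0.12. Among the knockdown lists, only replicate 2 correlated best with its own number. Such correlations of peak numbers cannot exclude that samples of the same number were handled together. With a replicate block the differences in peaks stayed 1.67, -0.33 and 2.67 and those per 10000 peaks -0.65, -1.05 and 1.59, with 0.25 as the smallest p. Depth, which the lists do not give, limits all of these values.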
